A study of Homo sapiens with 3 samples.

Results

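To describe how the genes of sterol and fatty acid synthesis responded to loss of the arginine methyltransferase PRMT1, 33 genes were followed in HCT116 cells, an established human colorectal carcinoma line. They were chosen by symbol for their place in mevalonate and cholesterol synthesis, in the control of these pathways by SREBP, or in fatty acid synthesis and desaturation. The array held 41749 gene names. The rule uses no measured value, but the list was made with earlier results of these data known. The samples comprised 1 RNA each from negative control cells (NC), from a first PRMT1 knockdown (PRMT1-KD1, here KD1) and from a second (PRMT1-KD2, here KD2). All 3 were grown in the same serum-containing McCoy's 5A medium and hybridised to 1-colour Agilent arrays with probes of 60 bases, without any other agent or allele in the labels. The labels describe transfection with synthetic small interfering RNAs and do not say which oligonucleotide made KD1 and which made KD2. The labels list these 2 oligonucleotides, shown here with no base in capitals:
PRMT1 siRNA 1: cugaaguccaggucgauggugaaguc
PRMT1 siRNA 2: uuguagucuuuguacugcc

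Cholesterol is built from acetyl-CoA through HMG-CoA, mevalonate and isoprenoid diphosphates to squalene, which is closed into lanosterol and then trimmed to cholesterol by a series of enzymes in the endoplasmic reticulum. Fatty acids are built from the same acetyl-CoA by carboxylation, repeated elongation and desaturation. Many of these genes are targets of the SREBP transcription factors, which SCAP carries from the endoplasmic reticulum to the Golgi for activation when sterols are low and which INSIG proteins hold back when sterols are plentiful.

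Of the 33 genes, 32 were well above background on all 3 arrays. SC5D, a sterol desaturase late in cholesterol synthesis, was not well above background on any array, with log2 signals of -3.95 (NC), -3.01 (KD1) and -3.16 (KD2). It enters no count of changes in the reported setting. A normalized log2 signal is the log2 processed intensity of a gene's brightest probe minus the 75th percentile of that array, and a change is the difference of such values between arrays. There was 1 array per group, so replicate error is unknown and no p-value is given, and fewer cells of a kind and less RNA per cell cannot be told apart in such bulk RNA. The extraction software's own estimate of spot error, combined over the arrays compared, was 0.19 to 0.35 log2 units for a change of a member, and it does not cover differences between cultures. As a yardstick, the robust SD of KD1 minus KD2 was 0.38 log2 units over the 17054 genes detected on every array.

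PRMT1 itself, the targeted gene, gave a log2 signal of 6.01 on the NC array against 2.75 on KD1 and 1.45 on KD2. It was thus at 10.4% of the control signal in KD1 and at 4.24% in KD2, so both knockdown arrays were low for their target. Of 8 markers of colorectal epithelium, VIL1 was not well above background on any array and the other 7 were on all. Among 6 markers of other cell types, COL1A1 and ALB were above background on every array, PTPRC on KD2 alone, and CD3E, COL1A2 and PECAM1 on none. Scaling to spike-in probes in place of the 75th percentile shifted the median change of all genes by 0.62 in KD1 and by 0.29 in KD2, so directions below are relative to the other genes on the array.

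In KD1, 4 of 32 measured members (12.5%) were higher than in NC by at least 1.5-fold, beside 13.2% of all measured genes. Another 3 (9.38%) were lower by at least that fold, beside 12.8% of all genes. Both shares were near the background. The higher genes were HMGCS1, SQLE, GGPS1 and SCD, and the lower genes were EBP, ACAT2 and ELOVL6. This split depended on scaling, with 16 members higher and 0 lower under spike-in scaling, 11 and 0 in the unscaled series matrix, 5 and 2 under median scaling, and 3 and 5 with the percentile taken over detected probes only. The shares of all genes moved too, to 49.5% higher and 1.88% lower under spike-in scaling and to 32.5% and 3.58% in the series matrix. They were 17.0% and 9.28% under median scaling, and 11.0% and 16.4% with the percentile over detected probes.

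In KD2, 1 of 32 members (3.12%) was higher by at least 1.5-fold, beside 9.56% of all genes, and this was HMGCS1. A further 7 (21.9%) were lower, beside 10.7% of all genes, namely ACAT2, TM7SF2, HSD17B7, EBP, DHCR7, ELOVL6 and FADS2. The share of lower members was above the background and the share of higher members below it, as a description of 2 arrays. The split was 4 higher and 1 lower under spike-in scaling, 3 and 5 in the unscaled series matrix, and 1 and 8 under median scaling. It was 2 and 6 under quantile normalization or with the percentile over detected probes. Of all genes, 22.6% were higher and 3.62% lower under spike-in scaling, where the lower members were therefore not above the background, and 13.4% and 7.41% in the series matrix. The shares were 6.05% and 18.1% under median scaling and 10.2% and 10.1% under quantile normalization. With the percentile over detected probes they were 11.4% and 8.78%.

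The median change of the members was -0.05 in KD1, where the median of all genes was -0.04, and -0.16 in KD2, where it was -0.05. The middle 50% of members ran from -0.39 to 0.29 in KD1 and from -0.43 to 0.06 in KD2. In KD1, 15 members were above 0 and 17 below, and in KD2 11 were above 0 and 21 below. The median of all genes was below 0 in both, so more genes on the array lay below 0 than above it. Under spike-in scaling, 30 members were above 0 and 2 below in KD1, and 21 above and 11 below in KD2. That scaling moved all genes up, to medians of 0.58 in KD1 and 0.24 in KD2. Both comparisons share the NC array, so an error on that array enters both sets of values, which are given side by side for each gene.

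**Figure D1:**
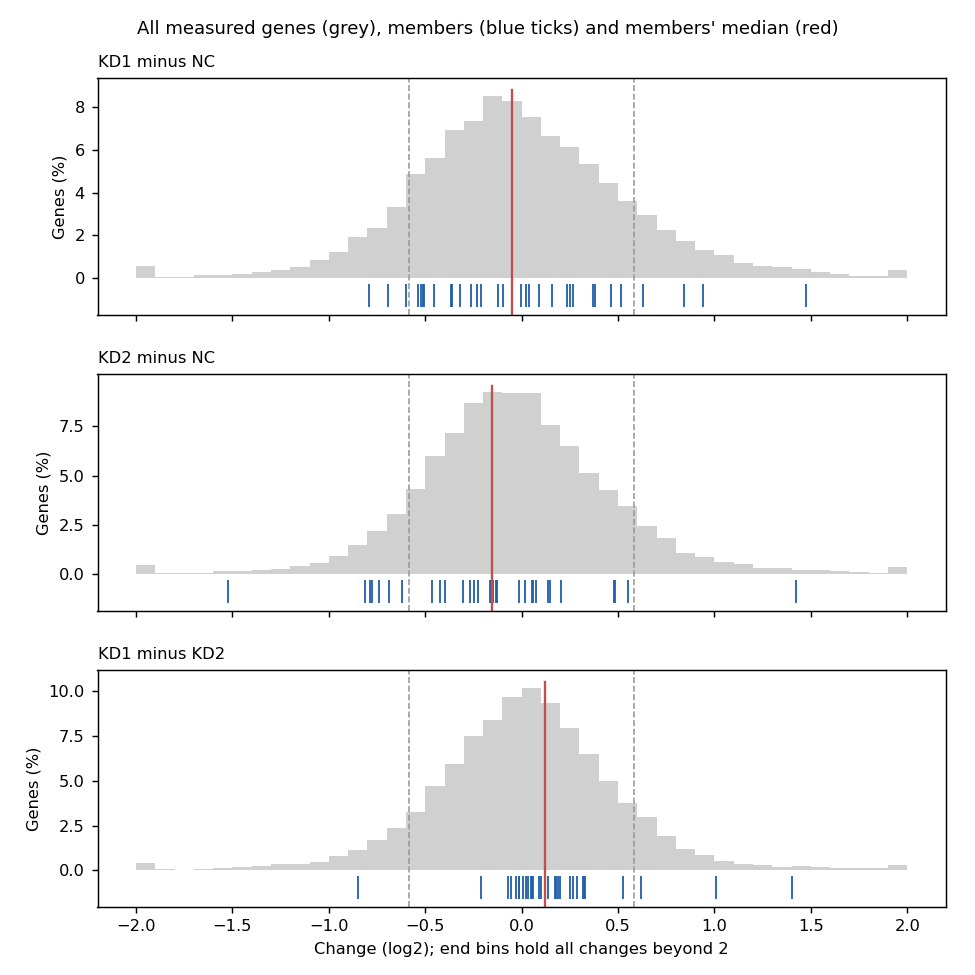
Distribution of the log2 change over all measured genes (grey bars, percent of genes per 0.1 log2 unit), with each of the 32 measured members as a blue tick, their median as a red line and 1.5-fold as dashed lines. The members spread across the body of the distribution, with medians of -0.05 in KD1, -0.16 in KD2 and 0.12 for KD1 minus KD2, and HMGCS1 is the tick farthest to the right in both upper panels.

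The 250 bases upstream of the RefSeq transcription start are shown for those members beyond 1.5-fold in a shared direction in the knockdowns that were found in the RefSeq promoter table of assembly GRCh38.p14, which held 29 of the 33 genes and not FDFT1, SQLE, FASN and ACAT2. HMGCS1 was higher in both knockdowns, whereas EBP and ELOVL6 were lower in both. HMGCS1 lies on the minus strand with its window at chr5:43313413-43313662 (the upstream one of 2 listed starts), ELOVL6 on the minus strand at chr4:110198616-110198865, and EBP on the plus strand at chrX:48521558-48521807. Capitals mark the letters CCAAT and GGGCGG, the core letters bound by NF-Y and by Sp1-type factors, on either strand:
HMGCS1: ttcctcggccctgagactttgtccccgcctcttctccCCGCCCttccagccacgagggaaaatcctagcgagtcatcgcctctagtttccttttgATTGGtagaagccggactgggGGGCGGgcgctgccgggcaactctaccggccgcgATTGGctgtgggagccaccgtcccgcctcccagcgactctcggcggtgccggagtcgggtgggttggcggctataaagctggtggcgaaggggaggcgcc
ELOVL6: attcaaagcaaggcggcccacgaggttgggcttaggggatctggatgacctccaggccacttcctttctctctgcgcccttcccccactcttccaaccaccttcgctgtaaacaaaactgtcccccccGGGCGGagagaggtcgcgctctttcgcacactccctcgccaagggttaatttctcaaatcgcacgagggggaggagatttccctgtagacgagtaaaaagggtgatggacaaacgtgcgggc
EBP: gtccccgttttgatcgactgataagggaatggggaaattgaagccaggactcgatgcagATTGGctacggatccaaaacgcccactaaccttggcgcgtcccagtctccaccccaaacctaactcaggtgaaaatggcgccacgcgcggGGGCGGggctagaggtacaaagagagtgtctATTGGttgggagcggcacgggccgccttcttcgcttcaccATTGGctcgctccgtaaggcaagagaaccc

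The HMGCS1 window shown held 2 matches to CCAAT and 2 to GGGCGG, the EBP window 3 and 1, and the ELOVL6 window 0 and 1. The window of the other listed HMGCS1 start, not shown, held 0 and 2. Across the members with a promoter in the table, CCAAT was found in 20 of 29 (69%), beside 37% of all 27305 genes in the table and 40.9% of the 10670 of them measured here. GGGCGG was found in 28 of 29 (96.6%), beside 46.2% and 71.1%, and the sequence TCACNCCAC, which resembles a sterol regulatory element, in 1 of 29 (3.45%), beside 1.09% and 1.18%. The single member with TCACNCCAC was SREBF2. SC5D, which has no measured change, was among the 29 and held both CCAAT and GGGCGG. Both strands were searched, a gene counted once over its listed starts, and a match describes letters in the window and not a bound site.

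The early steps, from acetoacetyl-CoA to the prenyl diphosphates, held 9 members. In KD1, 2 of them (22.2%) were higher and 1 (11.1%) was lower by 1.5-fold, beside 13.2% and 12.8% of all genes. The median change was 0.27, beside -0.04 for all genes. In KD2 1 (11.1%) was higher and 1 (11.1%) lower, beside 9.56% and 10.7%, with a median of 0.05 beside -0.05. HMGCS1, the cytosolic synthase that makes HMG-CoA, was the most raised member in both knockdowns. On NC its log2 signal was 0.50, against 1.97 on KD1 and 1.92 on KD2, so the knockdown arrays lay together and well above the control. This is a change of 1.48 (spot error 0.21) in KD1 and 1.43 (spot error 0.21) in KD2, or 2.78-fold and 2.69-fold. Ordered from the most raised gene, HMGCS1 stood at 228 of 19231 in KD1 and 193 of 19421 in KD2. Its probe reads NM_002130 and lies at chr5:43290117-43290176 in hg19. HMGCS1 stayed past 1.5-fold in both knockdowns under each of 10 other settings, from 1.20 to 2.10 in KD1 and from 1.14 to 1.72 in KD2. Here and below, the settings that change only the floor or the filter cannot alter a member above background on all arrays. The mean over probes cannot alter a gene with 1 probe, such as HMGCS1.

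ACAT2, the cytosolic thiolase that joins acetyl-CoA units just before HMGCS1, differed in the opposite direction. Its signal of 3.76 on NC compared with 3.06 on KD1 and 2.94 on KD2, a change of -0.69 in KD1 and -0.81 in KD2, and both knockdown arrays were below NC under all 10 other settings (highest -0.07 in KD1 under spike-in scaling). The ACAT2 probe lies at chr6:160199814-160199873 in hg19. AACS, which activates acetoacetate for lipid synthesis, was at 1.71 on NC, 2.18 on KD1 and 2.19 on KD2. Its changes of 0.47 and 0.48 were nearly equal and short of 1.5-fold, with a further probe at 0.36 and 0.58.

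Of the mevalonate enzymes, none of MVK, PMVK, MVD, IDI1 and FDPS passed 1.5-fold in either knockdown. For the kinase MVK the changes were 0.24 (KD1) and 0.15 (KD2), and for the next kinase, PMVK, they were 0.37 and 0.05. The decarboxylase MVD, with changes of -0.36 (KD1) and -0.15 (KD2), was read by a probe that spans 754 bases of the genome and so crosses a splice junction. IDI1, the isopentenyl diphosphate isomerase, changed by 0.27 and 0.20. FDPS, which makes farnesyl diphosphate, changed by -0.01 and -0.13. GGPS1 makes geranylgeranyl diphosphate for protein prenylation, outside the path to cholesterol. It was at -1.57 on NC, -0.94 on KD1 and -1.55 on KD2, so it was past 1.5-fold in KD1 only (0.63, spot error 0.26, against 0.02 in KD2), and its KD1 change was 0.21 with normexp background correction.

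**Figure D2:**
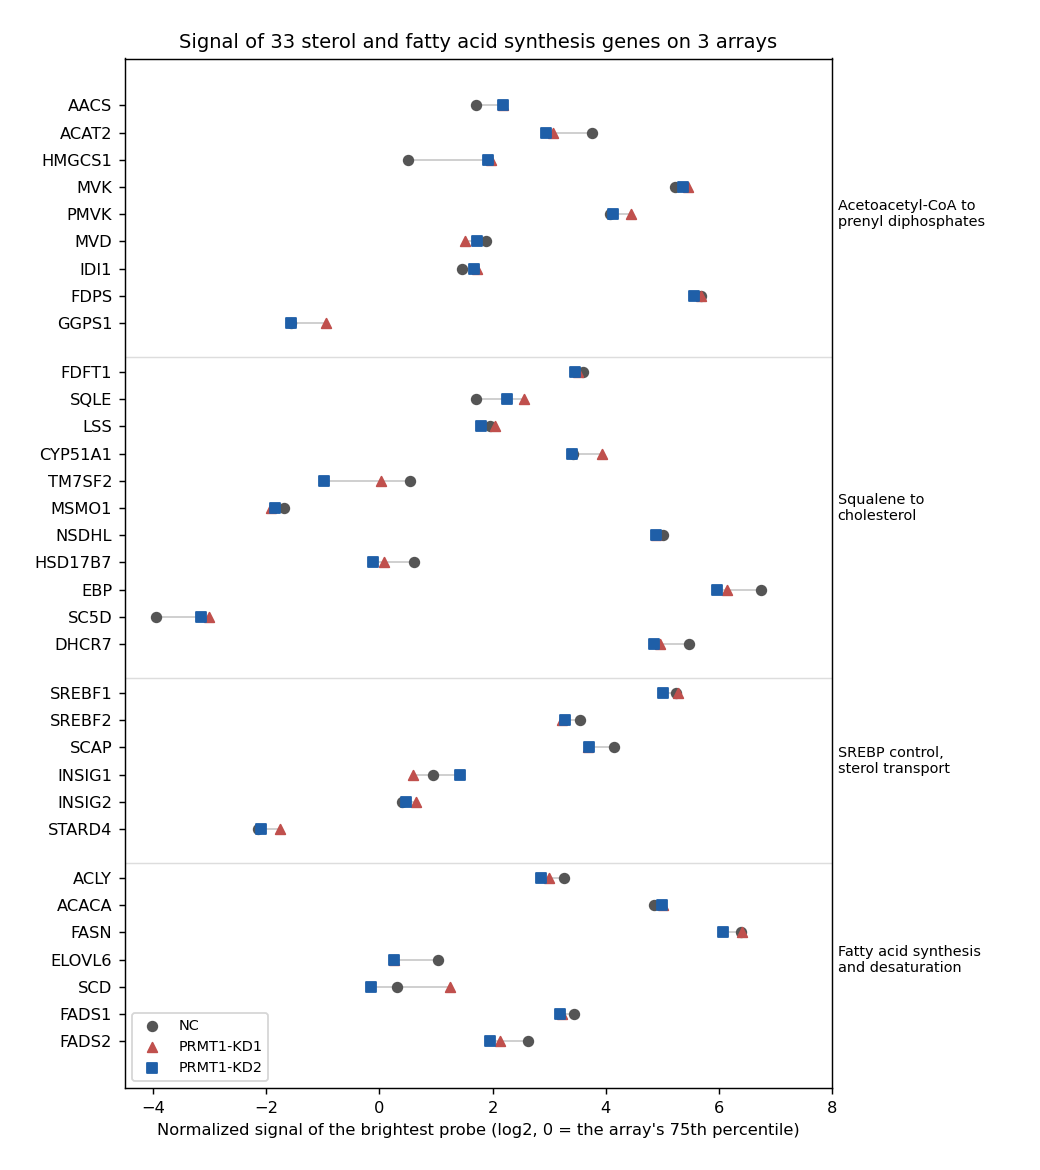
Normalized log2 signal of each of the 33 genes on the NC (grey circle), KD1 (red triangle) and KD2 (blue square) arrays, ordered by role, with 0 at the array's 75th percentile. Points are single arrays and compare only within a gene. HMGCS1 shows both knockdowns right of NC, ACAT2, EBP and ELOVL6 show both left of it, and SCD shows them on opposite sides.

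From squalene to cholesterol, 10 of 11 members were measured. In KD1, 1 was higher and 1 was lower by 1.5-fold (median -0.18, all genes -0.04), beside 13.2% and 12.8% of all genes. In KD2 0 were higher and 4 were lower, beside 9.56% and 10.7% of all genes (median -0.16, all genes -0.05). Of the 10, 9 were below 0, or 4 under spike-in scaling. SQLE, the squalene epoxidase and an oxygen-dependent control point of the pathway, was the member above 0 in KD2. Its signal of 1.71 on NC compared with 2.55 on KD1 and 2.26 on KD2, with both knockdown arrays above NC. The change was 0.84 in KD1, past 1.5-fold under all 10 other settings, and 0.55 in KD2, just under that fold.

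The enzymes on either side of SQLE were close to NC. FDFT1, the squalene synthase, differed from NC by -0.10 (KD1) and -0.15 (KD2), and LSS, which closes epoxidised squalene into lanosterol, by 0.09 and -0.16. CYP51A1, the lanosterol demethylase, was at 3.41 on NC, 3.93 on KD1 and 3.40 on KD2. It was therefore higher on KD1 alone, by 0.51, while the KD2 change was -0.01. MSMO1 and NSDHL, which act in removal of methyl groups from the sterol ring, changed by -0.23 and -0.16 (MSMO1) and by -0.12 and -0.13 (NSDHL).

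The 4 members lower by 1.5-fold in KD2 are 3 reductases and an isomerase of the sterol rings. TM7SF2, a sterol reductase that acts after lanosterol demethylation, was at 0.54 on NC, 0.03 on KD1 and -0.98 on KD2. It had the most negative change of any member in KD2, -1.52 (spot error 0.23), or 34.9% of the control signal, which placed it at 161 of 19421 from the lowest. In KD1 its change was -0.51, which became 0.11 under spike-in scaling, whereas the KD2 change stayed between -1.67 and -0.97. HSD17B7, a ketoreductase of sterol demethylation, was at 0.62, 0.08 and -0.12. Its brightest probe spans 791 bases of the genome and so crosses a splice junction. The HSD17B7 change was -0.74 in KD2, past 1.5-fold under 7 of 10 other settings, and -0.54 in KD1, the latter 0.09 under spike-in scaling. Its 2 further probes above background gave -0.19 and -0.18 in KD1 and -0.60 and -0.15 in KD2. Spike-in scaling put the KD1 median of all genes at 0.58. Under all 10 other settings, the KD1 changes of TM7SF2 and HSD17B7 stayed below the median of all genes.

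EBP, the sterol isomerase also known as emopamil-binding protein, was at 6.75 on NC, 6.15 on KD1 and 5.96 on KD2. Its change was -0.60 in KD1, only just past 1.5-fold and 0.02 under spike-in scaling, and -0.79 in KD2, or 58.0% of control. Its probe lies at chrX:48386942-48387001 in hg19. DHCR7, the reductase that makes cholesterol from its last precursor, was at 5.48, 4.95 and 4.85. Its KD1 change of -0.52 became 0.10 under spike-in scaling, and its KD2 change was -0.62, which was past 1.5-fold under 5 of 10 other settings and -0.33 under spike-in scaling. That scaling put the KD1 median of all genes at 0.58. Under all 10 other settings, the KD1 changes of EBP and DHCR7 stayed below the median of all genes.

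**Figure D3:**
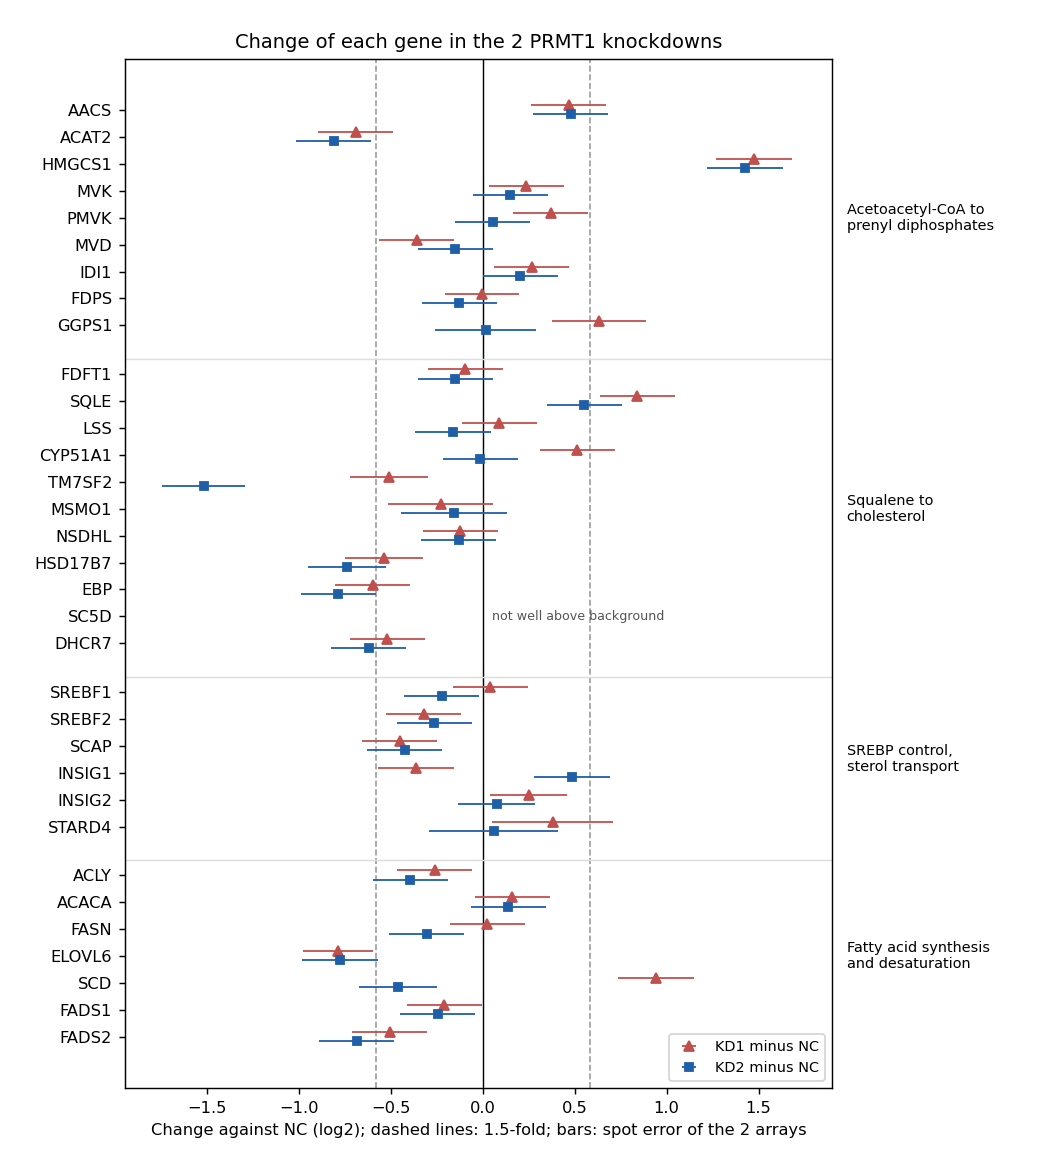
Log2 change of each gene against NC in KD1 (red triangles) and KD2 (blue squares), ordered by role, with the spot error of the arrays compared as horizontal bars and 1.5-fold as dashed lines. HMGCS1 is beyond the right line in both knockdowns, ACAT2, EBP and ELOVL6 are beyond the left line in both, and SC5D has no point.

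None of the 6 members in SREBP control and sterol transport passed 1.5-fold against NC in either knockdown. Of all genes, 13.2% were higher and 12.8% lower in KD1, and 9.56% and 10.7% in KD2. SREBF1 encodes the SREBP that mainly drives fatty acid genes, and its values were 0.04 (KD1) and -0.23 (KD2), with a further probe at -0.43 and -0.02. SREBF2, whose product mainly drives cholesterol genes, changed by -0.32 and -0.27, or by 0.30 and 0.03 under spike-in scaling. The medians of all genes under that scaling were 0.58 and 0.24. SCAP, the escort of SREBP, was at 4.14 on NC, 3.68 on KD1 and 3.71 on KD2, so both knockdowns were lower by a like amount (-0.45 and -0.43), with the KD1 change at 0.17 under spike-in scaling. INSIG2, a retention protein, had changes of 0.25 (KD1) and 0.07 (KD2), but a further, dimmer INSIG2 probe gave 1.29 and 0.01. STARD4, a soluble sterol carrier, changed by 0.38 (spot error 0.33) and 0.06 (spot error 0.35). It was faint, at -2.14 on NC, and its KD1 change was 0.03 with normexp background correction.

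INSIG1, which holds SCAP in the endoplasmic reticulum and is itself an SREBP target, was at 0.95 on NC, 0.59 on KD1 and 1.43 on KD2. Its change was -0.36 in KD1 and 0.48 in KD2, on opposite sides of NC, although the KD1 value was 0.26 under spike-in scaling and 0.03 in the series matrix. Those settings put the KD1 median of all genes at 0.58 and 0.35. Under all 10 other settings, INSIG1 stayed below the median of all genes in KD1 and above it in KD2. The difference KD1 minus KD2 was -0.85.

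Among the 7 genes of fatty acid synthesis and desaturation, 1 was higher and 1 lower by 1.5-fold in KD1. This is beside 13.2% and 12.8% of all genes, with a median of -0.21 beside -0.04. In KD2 0 were higher and 2 lower, beside 9.56% and 10.7% of all genes. The KD2 median was -0.40, beside -0.05, with 6 of 7 below 0, or 5 of 7 under spike-in scaling. The entry enzymes showed small changes. ACLY, which makes cytosolic acetyl-CoA from citrate, differed from NC by -0.26 (KD1) and -0.40 (KD2), with the KD1 change above 0 under spike-in scaling (0.36, all genes 0.58). ACACA, the acetyl-CoA carboxylase, changed by 0.16 and 0.14, and FASN, the fatty acid synthase, by 0.02 and -0.31.

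ELOVL6, which lengthens saturated and monounsaturated chains, was at 1.04 on NC, 0.25 on KD1 and 0.27 on KD2. Both knockdown arrays were lower by nearly the same amount, -0.79 and -0.78, or 57.8% and 58.3% of control, and the change stayed negative under all 10 other settings. A further ELOVL6 probe gave -0.54 and -0.28, and the brightest lies at chr4:110971171-110971230 in hg19. FADS2, the desaturase that opens polyunsaturated fatty acid synthesis, was at 2.63, 2.13 and 1.95. It changed by -0.51 in KD1, which became 0.11 under spike-in scaling, and by -0.69 in KD2. Under all 10 other settings, its KD1 change stayed below the median of all genes. FADS1, the next desaturase, changed by -0.21 and -0.25.

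SCD, the stearoyl-CoA desaturase that makes monounsaturated fatty acids, differed most between the knockdowns. Its signal of 0.31 on NC compared with 1.26 on KD1 and -0.15 on KD2. The KD1 change of 0.94 was past 1.5-fold under all 10 other settings, and the KD2 change of -0.46 stayed negative under all of them, so SCD lay on opposite sides of NC.

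In the direct comparison of the knockdowns, 3 of 32 members (9.38%) were higher in KD1 than in KD2 by 1.5-fold, beside 9.84% of all genes, and 1 (3.12%) was lower, beside 8.85%. The split was 9 and 0 under spike-in scaling, beside 27.8% and 3.09% of all genes, and 7 and 0 in the series matrix, beside 24.7% and 3.46%. The 3 were SCD (1.40), TM7SF2 (1.01) and GGPS1 (0.62), and the 1 was INSIG1 (-0.85). The other 28 members were within 1.5-fold, and 27 of 32 differed by less than the robust SD of 0.38, as did 66.8% of all genes above background on all arrays. The fifth member beyond the robust SD was CYP51A1 (0.53). KD1 was above KD2 for 25 members and below for 7 (31 and 1 under spike-in scaling), with a median difference of 0.12 beside 0.02 for all genes. With the percentile over detected probes the median difference was -0.0048, beside -0.11, so members above 0 were no longer the majority. Under quantile normalization it was 0.03, beside -0.01.

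**Figure D4:**
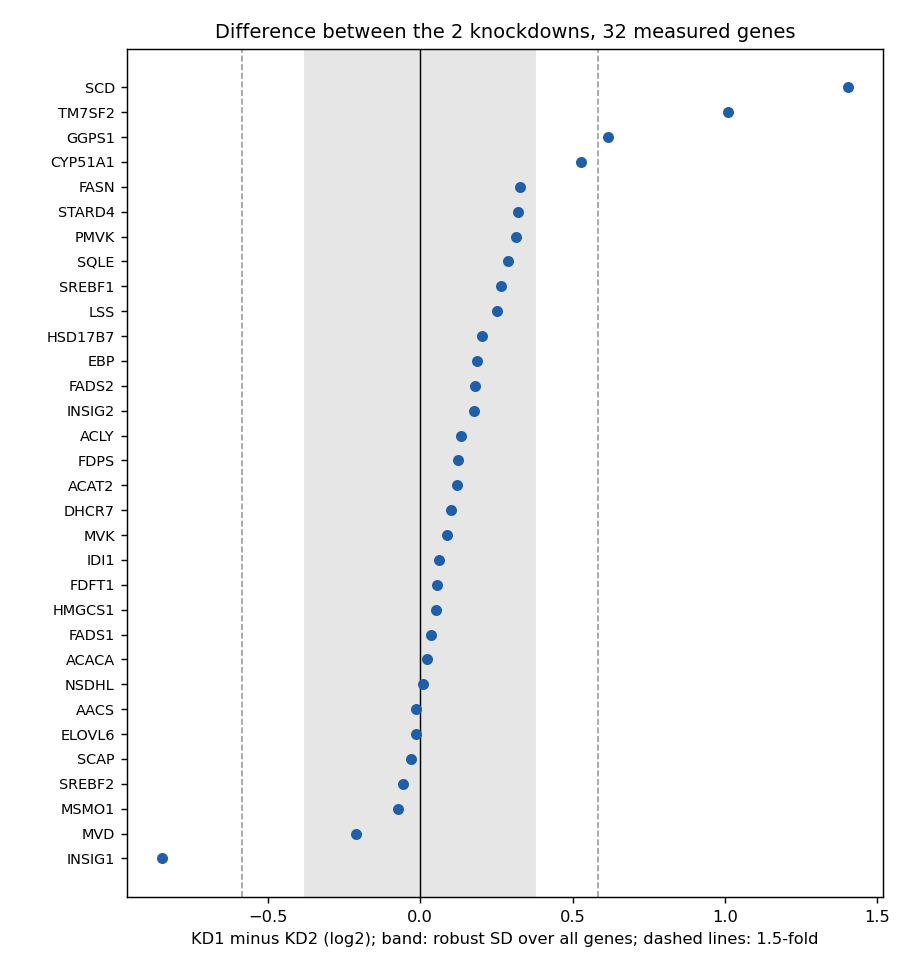
Difference KD1 minus KD2 in log2 units for the 32 measured genes, sorted, with the robust SD of all genes (0.38) as a grey band and 1.5-fold as dashed lines. Outside the band lie SCD, TM7SF2, GGPS1 and CYP51A1 on the right and INSIG1 on the left, and HMGCS1, ELOVL6 and AACS lie close to 0.

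A further 34 genes of sterol and lipid metabolism outside the member list were examined for context, and 31 of them were measured. ABCA1 and ABCG1, sterol exporters, and THRSP, a lipogenic regulator, were not well above background on any array. In KD1 5 (16.1%) were higher and 2 (6.45%) lower by 1.5-fold, beside 13.2% and 12.8% of all genes, with a median of 0.14. In KD2 4 (12.9%) were higher and 3 (9.68%) lower, beside 9.56% and 10.7%, with a median of -0.03. By the rule for naming genes, 4 were beyond 1.5-fold in a shared direction in KD1 and KD2. LPIN1, a phosphatidate phosphatase of glycerolipid synthesis, was at 1.67 on NC, 3.05 on KD1 and 2.81 on KD2, a change of 1.39 and 1.14. MYLIP, a ubiquitin ligase that targets lipoprotein receptors for degradation, was at 1.49, 2.45 and 2.56, a change of 0.96 and 1.07. ME1, the malic enzyme that supplies NADPH for lipogenesis, was at -0.01, 0.98 and 0.79, a change of 0.99 and 0.80. STARD3, a late endosomal sterol transfer protein, was at 6.02, 5.36 and 5.32, a change of -0.66 and -0.70. No gene of this list was past 1.5-fold in opposite directions.

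**Figure D5:**
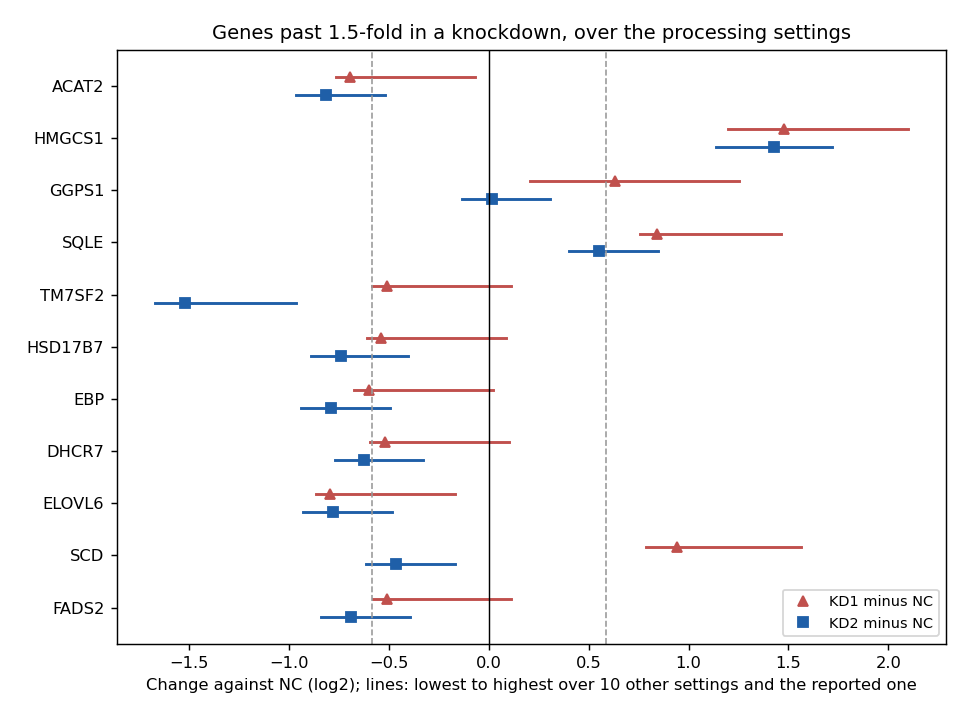
Log2 change against NC of the 11 members past 1.5-fold in at least 1 knockdown, with the reported value as a marker and a line from the lowest to the highest value over 10 other processing settings, KD1 in red and KD2 in blue, and 1.5-fold as dashed lines. The lines of HMGCS1 lie wholly beyond the right dashed line in both knockdowns and that of TM7SF2 in KD2 beyond the left one, while the KD1 lines of EBP, DHCR7, HSD17B7, TM7SF2 and FADS2 reach past 0. They do so under spike-in scaling, where the KD1 median of all genes was 0.58.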

How the data were processed

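RNA of 3 samples was labelled with Cy3 and hybridised to 1 array each. The authors deposited the scanner output of Agilent Feature Extraction 10.7.1.1, in which the processed intensity of each spot had been corrected for background on its own array and not scaled between arrays. A deposited matrix of the series gives per-probe mean intensity, within 1% of the scanner value for 99.9% or more of probes. There were 62976 spots per array, with 58201 non-control probes, 40.8% to 42.5% of them well above background.

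Control spots and spots marked as non-uniform or outliers were left out, which removed 130 probes. Repeat spots were averaged as log2 values, the 75th percentile of the array was subtracted, and the brightest probe stood for the gene. A gene was counted if well above background on 1 or more of the arrays compared, with the lowest such signal on an array as the floor on that array. The threshold was the methods' fold of 1.5, whose p-value needs replicates. The members, the 34 further genes and the motifs were chosen with earlier results of these data known. The genes named were all members, PRMT1, and further genes past 1.5-fold in both knockdowns. Sequences were for members past it the same way in both. The alternatives were normexp correction (offset 50), quantile normalization, median scaling, a percentile over detected probes, 8 spike-in probes, the series matrix, no floor, a stricter filter, the mean over probes, outlier spots kept and a fold of 2. The counting was tested on simulated data. Probe positions are in hg19, and promoters came from RefSeq. The SMARCA4 knockdowns were not analysed here. R 4.3.3 with limma 3.58.1 and Python 3.11.15 with pandas 2.3.3, numpy 2.4.6 and matplotlib 3.10.9 were used.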

Additional observations from a re-analysis of the deposited data

Results flagged for a closer look

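SCD and INSIG1 lay on opposite sides of the control in the knockdowns. For SCD, KD1 was above NC and KD2 below it, with a KD1 minus KD2 difference of 1.40. For INSIG1, KD1 was below NC and KD2 above it, with a difference of -0.85. With 1 array per knockdown, neither difference was tested. The SCD signs held under all 10 other settings. The INSIG1 value in KD1 was above 0 under spike-in scaling and in the series matrix, where all genes moved up. Relative to the median of all genes, INSIG1 ran from -0.38 to -0.16 in KD1 and from 0.46 to 0.63 in KD2 over these settings.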

How the results depend on the processing

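The count of members past 1.5-fold in KD1 was 7, against 16 under spike-in scaling, 11 in the series matrix and 1 at a fold of 2 (HMGCS1). In KD2 it was 8, against 5 with normexp correction, 5 under spike-in scaling and 2 at a fold of 2. Between KD1 and KD2 it was 4, against 9 under spike-in scaling, 7 in the series matrix and 2 at a fold of 2. These counts need not hold the same genes. At a fold of 2, 4.47% of all genes were higher and 3.33% lower in KD1, and 2.86% and 2.51% in KD2. Between the knockdowns it was 2.43% and 2.35%. With normexp correction, 4.13% of all genes were higher and 4.98% lower in KD2. The other counts were within 1.5 times.

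The median change of the members in KD1 was 0.051 under median scaling, 0.57 under spike-in scaling and 0.34 in the series matrix. In KD2 it was -0.30, 0.14 and -0.051, and between the knockdowns 0.37, 0.45 and 0.41, with -0.0048 for a percentile over detected probes. Each scaling moved the median of all genes with it, to 0.58 in KD1 and 0.24 in KD2 under spike-in scaling, because it adds 1 constant per array. The members' median minus that of all genes was -0.01 in KD1 and -0.11 in KD2 under each of these scalings, as that constant fixes. With no floor and no filter, which also lets in SC5D, it was 0.20 and -0.0038, and with normexp correction 0.06 and -0.10. EBP in KD1 was 0.021 under spike-in scaling.

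HMGCS1 in both knockdowns, SQLE and SCD in KD1 and TM7SF2 in KD2 were past 1.5-fold under all 10 other settings. EBP in KD1 and DHCR7 in KD2 were past it under 5 of 10, HSD17B7 and ELOVL6 in KD2 under 7, and GGPS1, ACAT2 and ELOVL6 in KD1 and FADS2 in KD2 under 8. ACAT2 and EBP in KD2 were past it under 9. The cause was not tested. These tallies include settings that could not alter a measured member. Removing the floor and filter, or using the stricter filter, left each measured member at its reported value. All 32 of these members were above background on every array. The mean over probes did the same for each measured member with 1 probe.

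No paired analysis was possible because each group has 1 array. Precision is limited by the number of arrays, and signal close to background left SC5D without a change.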
